A study of Mus musculus with 2 samples.

Results

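Cited1 was followed in RNA-seq of mouse nephron progenitor cells with and without p53. The gene was taken by its symbol, and 1 row of the table carries it, out of 10617 gene symbols listed. The cells were the Six2-expressing cap mesenchyme of the embryonic kidney at embryonic day 15.5, sorted by flow cytometry from mice of mixed CD1 and C57BL background. The wild-type library (WT) came from Six2CreGFP+;p53+/+ kidneys and the knockout library (KO) from Six2CreGFP+;p53f/f kidneys. Both groups thus carried the Six2CreGFP transgene, which drives Cre recombinase and GFP in Six2-expressing cells, and differed in whether the p53 gene (Trp53) was floxed. There was 1 library per group, so no difference below has a replicate check or a test, and the number of embryos behind each library is not given in the sources used here.

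Cited1 codes for a small nuclear co-regulator of the CITED family, proteins without a DNA-binding domain of their own that bind the acetyltransferases CBP and p300 through an acidic carboxy-terminal domain. In the developing kidney it marks the cap mesenchyme cells that have not yet responded to inductive signals. These cells keep Six2 but lose Cited1 as they become competent to respond, and then turn on genes of the pretubular aggregate and renal vesicle. Six2 therefore spans the whole cap mesenchyme, and Cited1 only its least committed part.

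The gene (ENSMUSG00000051159) lies on chromosome X from 102247381 to 102252181 on the minus strand of GRCm38. GENCODE vM21 gives it 5 transcripts, each of 3 exons, and no other annotated gene overlaps it. The transcript that spans the whole gene is 901 bases long and codes for 203 amino acids, with its first exon (148 bases) entirely untranslated. The transcripts start at 5 different positions, while the density in the table is a single value for the gene, so the use of each start was not measured. The 250 bases before the first of these starts are shown because the comparison removes a transcription factor, p53. The stretch is chrX:102252182-102252431, minus strand, from RefSeq on GRCm38.p6, with capitals for a match to the TATA box core and to the GC box.

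Cited1 promoter: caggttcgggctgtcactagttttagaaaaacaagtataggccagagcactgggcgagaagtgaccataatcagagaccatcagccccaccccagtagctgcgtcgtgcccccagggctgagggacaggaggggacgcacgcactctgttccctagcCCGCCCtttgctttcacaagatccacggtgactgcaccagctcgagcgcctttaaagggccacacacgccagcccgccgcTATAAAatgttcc

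The TATA box core, searched as TATAAA on both strands, stood at -13 to -8, counted from -1 at the last base before the start. The search took the letters anywhere in the stretch, and whether this match serves as a TATA box was not tested. A GC box, searched as GGGCGG on both strands, stood on the opposite strand at -93 to -88. The p53 decamer motif, searched on both strands, had no match in this stretch, nor in the same window before 2 further Cited1 starts in RefSeq. These letters were present in 7.13% of 32851 such windows over all genes, against 12.4% for the TATA box core and 32.7% for the GC box. The CCAAT box, searched as CCAAT on both strands and found in 33.8% of the windows, also had no match in the stretch shown.

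Cited1 was lower in the library without p53. Its read density, in RPKM (reads per gene length and library depth, a unit inferred from the values), was 23.6 in the WT library and 16.1 in the KO library. The WT value was the higher of the pair by 1.47-fold, so that KO stood 31.9% lower. On the log2(density + 1) scale, used for all differences below and defined as KO minus WT, Cited1 stood at -0.53. The same scale understates differences of genes with low densities. In bulk RNA, fewer Cited1-expressing cells among the sorted cells and less Cited1 RNA per cell cannot be told apart.

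The densities of Cited1 resolve into whole reads. With the gene's 1754 bases of merged exons and the depths implied by the table, 91224360 reads in WT and 85640522 in KO, they correspond to 3773 reads in WT and 2411 in KO, each within 0.01 of a whole number. The density ratio of KO to WT was 0.681, with an exact 95% Clopper-Pearson interval of 0.647 to 0.717. Among genes with 10 to 100 whole reads, even numbers made up 59.5% in WT and 59.0% in KO. With the read counts of Cited1 divided by 2, as if reads came in pairs, the interval was 0.633 to 0.732. Both intervals cover counting error only, not the spread between embryos or preparations. In the authors' deposited table Cited1 was 1.41-fold lower in KO after a further library scaling, with a p-value listed at 0 that compares the 2 libraries and not the genotypes.

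The floxed gene itself gave a check of the labels. Trp53 had 33.9 RPKM in WT against 5.38 RPKM in KO, and the ratio was 0.158 (exact 95% interval 0.151 to 0.166). Six2, the factor that holds cap mesenchyme cells in the progenitor state, was at 482 RPKM in WT and 509 RPKM in KO, and the sort in both groups was for a transgene named for it. Cited1 was thus at 4.89% of the Six2 density in WT and 3.15% in KO. This ratio of genes within a library does not depend on how the libraries are scaled to each other, and it was 0.645 times as large in KO.

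Cited1 was next set beside genes of like density. In order of mean density it ranked 2763 of 10617, well above the density floor of 7.30 RPKM that splits the listed genes into an upper and a lower group of equal size. The 100 genes just below it and the 100 just above had mean densities from 19.0 to 20.7 RPKM. Of these 200 genes, 100 were lower and 100 higher in KO, with a middle 50% of log2 differences from -0.15 to 0.19. Only 5 of the 200, or 2.5%, lay at or below the Cited1 difference. Over all genes above the floor, 2.83% did so. Counting the 200 genes that lay nearest in WT density, 3% were at or below Cited1, and nearest in KO density 1%. A gene was listed only where the authors' corrected p-value was under 0.05, so these shares leave out like-density genes that missed that limit.

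**Figure D1:**
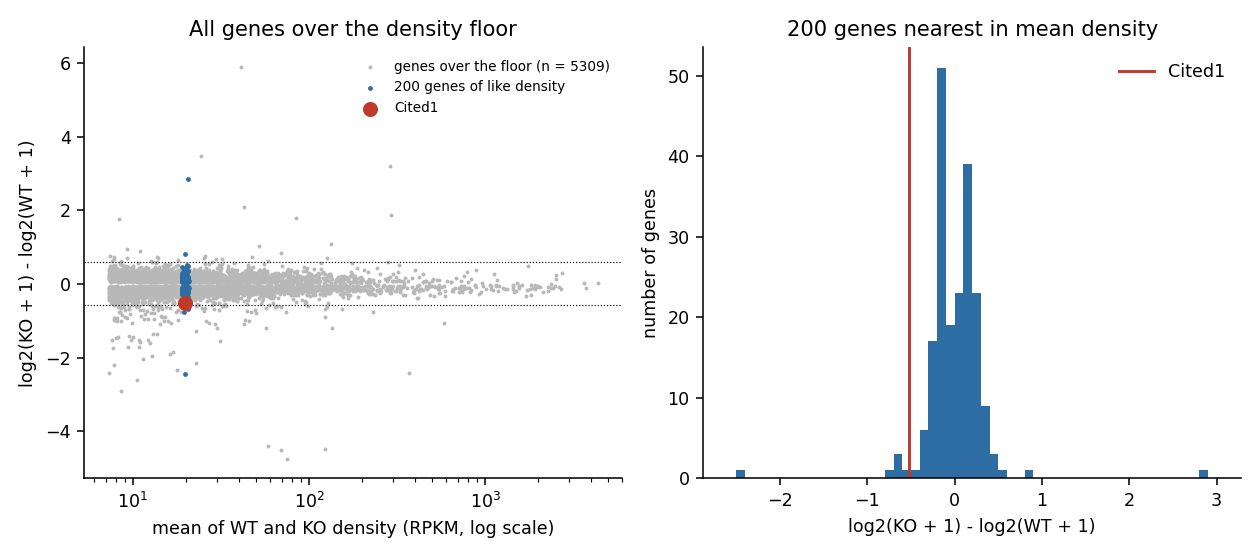
Left, log2 difference of KO minus WT against mean density in RPKM on a log axis, 1 point a gene, for the 5309 genes over the density floor, with dotted lines at 1.5-fold. Right, the number of genes by log2 difference for the 200 genes nearest to Cited1 in mean density, where the red line of Cited1 at -0.53 has 5 genes at or below it.

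The 5 genes at or below Cited1 in that density range, named after their values were seen, included Trp53 itself, at -2.45. Sepp1, which codes for the plasma selenium carrier selenoprotein P, had 24.9 RPKM in WT and 14.2 in KO. Ahcy, the enzyme that hydrolyses S-adenosylhomocysteine, was at 25.1 and 15.5 RPKM, and Fam176b at 25.7 and 15.6 RPKM. Sfrp1, a secreted Wnt inhibitor, was at 24.0 and 15.2 RPKM.

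Sfrp1 was also the gene whose pair of densities was most like that of Cited1. Likeness was taken as the distance between genes over the 2 libraries on the log2(density + 1) scale, and with 2 values per gene it describes level and difference only. Sfrp1 lay at a distance of 0.075. Colec12, a scavenger receptor of the collectin family (24.3 RPKM in WT and 16.9 in KO), followed at 0.079 and Ahcy at 0.098. C1qtnf6, a secreted protein of the C1q and tumour necrosis factor family (21.6 and 15.98 RPKM), Nab2, a co-repressor of Egr transcription factors (24.1 and 17.5 RPKM), and Fam176b came next, at 0.12 each.

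The difference in Cited1 did not reach 1.5-fold on the main scale. Above the floor, 128 genes were at least 1.5-fold lower in KO (2.41% of the other genes above the floor) and 35 at least 1.5-fold higher (0.659%). The median of all genes above the floor was -0.072, and with both libraries centred on it Cited1 stood at -0.46. Under the scaling behind the authors' fold changes it stood at -0.47.

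Base composition moved with the difference between the libraries, and Cited1 is rich in G and C. Its longest transcript had 62.4% GC, more than 97.6% of the genes above the floor, and its exon length exceeded that of 18.3% of them. Across 5263 genes above the floor with a gene model, Spearman's rho of the log2 difference with GC content was -0.52, as a description across genes that share both libraries. The decile of genes with the lowest GC content had a median of 0.19 and the decile with the highest one of -0.15. Cited1 lay below both. The 195 genes that shared its class of GC content and length had a median of -0.20, 173 of them were lower in KO, and 16, or 8.21%, were at or below Cited1. With the median of each such class removed and the overall median added back, Cited1 stood at -0.40. On that scale 9 of 196 genes of like density were at or below it. The part of base composition in the remaining difference was not tested.

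**Figure D2:**
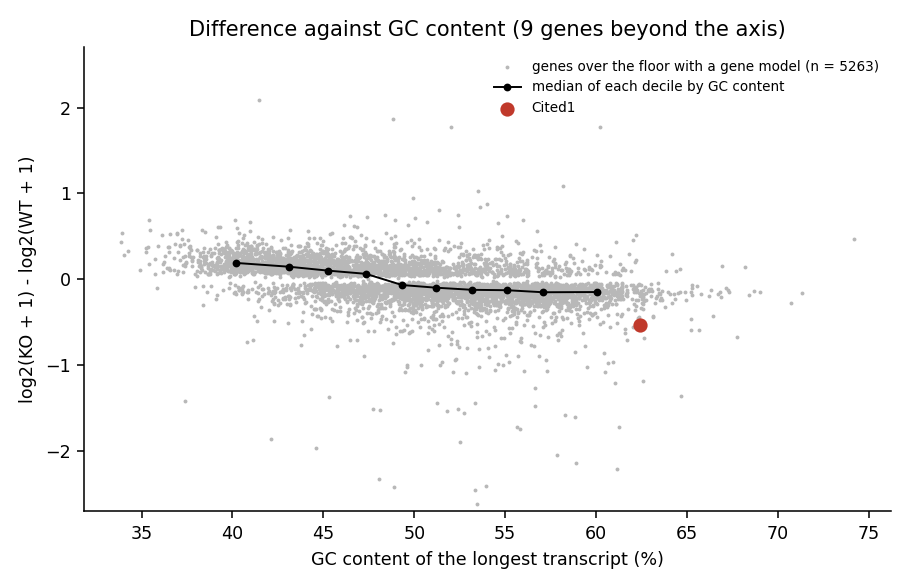
Log2 difference of KO minus WT against the GC content of the longest transcript in percent, for 5263 genes over the density floor, with 9 genes beyond the axis. The black line joins the medians of the deciles of genes by GC content, from 0.19 to -0.15, and Cited1 at 62.4% GC and -0.53 lies below it.

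The genes of the uncommitted cap mesenchyme did not follow Cited1 as a group. Of 32 such genes fixed as a list, with Cited1 left out, 26 were in the table and 23 above the floor. Of these 23, 12 were lower and 11 higher in KO, where 55.8% of all genes above the floor were lower, and none differed by 1.5-fold. The list median was -0.075, against -0.072 for all genes above the floor. Cited1 had the lowest difference of any gene in the set above the floor, though its counting interval overlapped those of Hoxc11 and Pla2g7. Traf1, an adaptor of tumour necrosis factor receptors that lies under the floor, had 4.002 RPKM in WT against 2.48 in KO. Its log2 difference was also -0.53, and its plain density ratio, 0.619, was lower than that of Cited1.

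Among members above the floor, those closest to Cited1 were Hoxc11, Pla2g7 and Osr1. Hoxc11, one of the Hox11 patterning genes of the kidney, had 25.1 RPKM in WT and 17.5 in KO. Pla2g7, a secreted phospholipase, was at 24.7 and 17.6 RPKM, and Osr1, a zinc finger factor of the earliest kidney mesenchyme, at 69.2 and 52.95 RPKM. Cited1 was at 94.1% of the Hoxc11 density in WT and 91.8% in KO, and at 95.5% and 91.3% of that of Pla2g7. Its share of the Osr1 density was lower in KO, at 30.3% against 34.1% in WT.

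At the other end of the list stood Itga8, Eya1 and Eya4, which were higher in KO. Itga8, an integrin subunit of the cap mesenchyme, had 20.0 RPKM in WT and 25.7 in KO. Eya1, the partner of Six2, had 66.8 and 84.1 RPKM, and the related Eya4 had 14.98 and 18.7 RPKM. Cited1 was more abundant than Itga8 in WT, at 117.6% of it, and less abundant in KO, at 62.4%. Set against each of the 23 genes within a library, Cited1 was relatively lower in KO in 23 of 23, with ratios from 0.530 for Itga8 to 0.976 for Hoxc11 and a median of 0.718. This count restates that Cited1 had the lowest difference of the set. The exact interval of its density ratio, 0.647 to 0.717, overlapped those of Hoxc11 (0.666 to 0.731) and Pla2g7 (0.685 to 0.740). The order of Cited1 with these genes was thus not resolved by counting. That of Tmem100, 0.800 to 0.927, lay above it. Once corrected for GC content and length, Cited1 at -0.40 was level with Hoxc11 (-0.40) and Tmem100 (-0.40), and Pla2g7 was lower (-0.46). Itga8, Eya1 and Eya4 then stood at 0.12, 0.14 and 0.020.

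**Figure D3:**
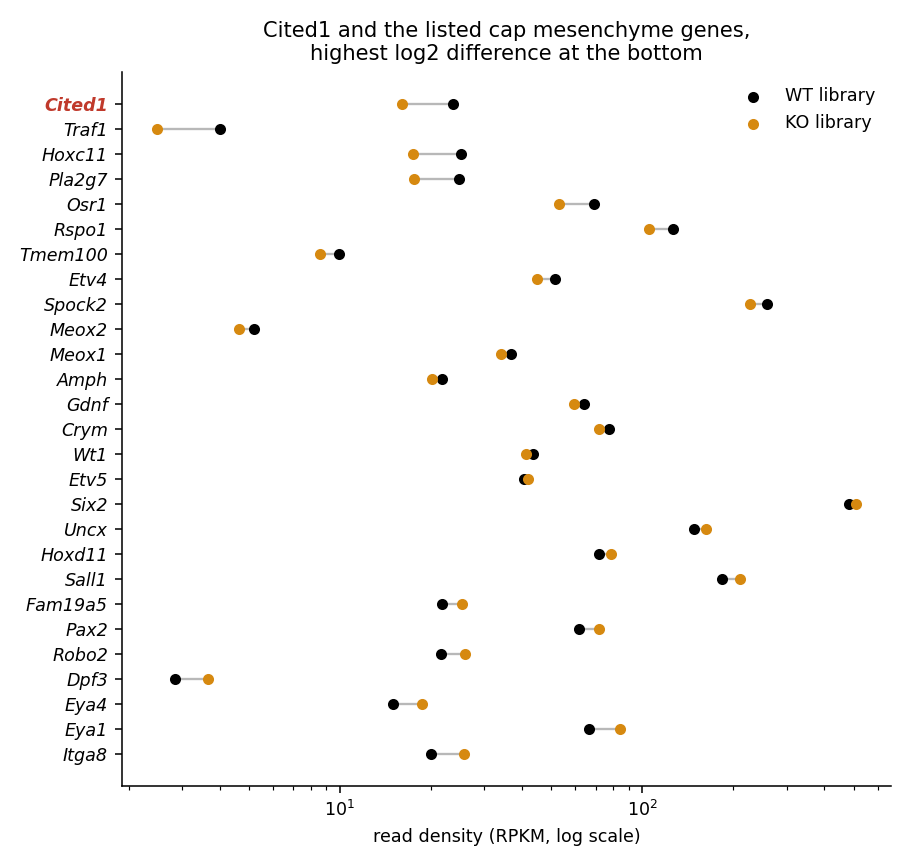
Read density in RPKM on a log axis in the WT library (black) and the KO library (orange) for Cited1 and the 26 listed cap mesenchyme genes, 1 row a gene, ordered by log2 difference. Cited1 is in the top row, with 23.6 RPKM in WT against 16.1 in KO, and Itga8 in the bottom row, at 20.0 and 25.7 RPKM.

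Genes that follow the Cited1 stage went in both directions. Of 28 induced and early nephron genes, 23 were in the table and 13 above the floor, of which 4 were lower and 9 higher in KO, with a median of 0.12. Over all genes above the floor, 55.8% were lower and 44.2% higher, with a median of -0.072. Bmp2, a growth factor of the BMP family, had 9.95 RPKM in WT and 15.6 in KO. Hey1 and Hes1, target genes of Notch signalling, were at 26.2 and 35.6 RPKM and at 22.2 and 28.6 RPKM. The 3 lowest above the floor were Lfng, a glycosyltransferase that modifies Notch (11.4 and 5.87 RPKM), Osr2 (15.3 and 8.27 RPKM) and Sfrp2, a secreted Wnt inhibitor (76.0 and 66.3 RPKM). All 10 listed members under the floor were lower in KO, where 71.9% of all genes under the floor were. With them the list had 14 of 23 lower, beside 63.8% over the whole table, and its median was -0.20. Dkk1, a Wnt antagonist and target, had 2.79 RPKM in WT against 1.67 in KO. Members outside the table, among them Wnt4, Lhx1 and Pax8, are not analysed here.

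The relatives of Cited1 differed in direction. Cited2, which shares the CBP- and p300-binding domain and restrains hypoxia signalling, was the most abundant, with 84.6 RPKM in the WT library and 108 RPKM in the KO library. Its density ratio was 1.28 (exact 95% interval 1.26 to 1.31, from approximate reads). Cited4 was scarce, with 2.35 RPKM in WT against 0.947 in KO, a ratio of 0.402 (0.316 to 0.506) from about 268 and 101 reads. The intervals of the 3 genes do not overlap, Cited4 lying lowest and Cited2 highest. Cited1 was at a density between its relatives in both libraries. Over the CITED family list, 8 of 11 genes were in the table, and the 5 above the floor were all higher in KO, where 44.2% of all genes above the floor were higher. These 5 were Cited2, the acetyltransferase genes Ep300 (16.7 and 19.5 RPKM) and Crebbp (10.8 and 11.9 RPKM), Smad4, the shared mediator of TGF-beta and BMP signals (25.8 and 31.5 RPKM), and Ctnnb1, which codes for beta-catenin (176 and 192 RPKM). Tfap2b, a DNA-binding partner of CITED proteins, was low in both libraries, at 0.621 and 0.270 RPKM. With Cited4 and Esr1 it lay under the floor. All 3 were lower in KO, where 71.9% of all genes under the floor were.

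Genes of the signalling pathways that act on the cap mesenchyme, most of them not ligands, were mostly higher in KO. Of 26 listed genes above the floor, 22 were higher and 4 lower, with a median of 0.13 and none past 1.5-fold, where 44.2% of all genes above the floor were higher. After centring 24 were higher and 2 lower, where 50% of all genes above the floor were higher by construction. Bmp7, the BMP ligand that moves Cited1-expressing cells toward the inducible state, had 101 RPKM in WT and 107 in KO. The other listed BMP and Wnt ligand genes, Bmp4, Wnt11 and Wnt9b, were lower in KO. Wnt11 (3.09 and 2.52 RPKM) and Wnt9b (0.238 and 0.0827 RPKM) lay under the floor, where 71.9% of all genes were lower. Tcf7l2, also under the floor, was higher in KO (2.82 and 3.45 RPKM). Sp5, a target of Wnt and beta-catenin, was at 9.25 and 13.1 RPKM. Spry2, a feedback inhibitor of FGF signalling, was at 38.2 and 51.7 RPKM and Smad7, a feedback inhibitor of TGF-beta and BMP signalling, at 11.5 and 15.4 RPKM. The lowest 3 were Jun (212 and 167 RPKM), a component of the AP-1 factor, Bmp4 (17.7 and 16.5 RPKM) and Tcf7l1 (48.7 and 46.4 RPKM), a repressor among the Tcf factors of the Wnt pathway. With GC content and length corrected, the list median was 0.10, on a scale to which the overall median of -0.072 was added back.

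**Figure D4:**
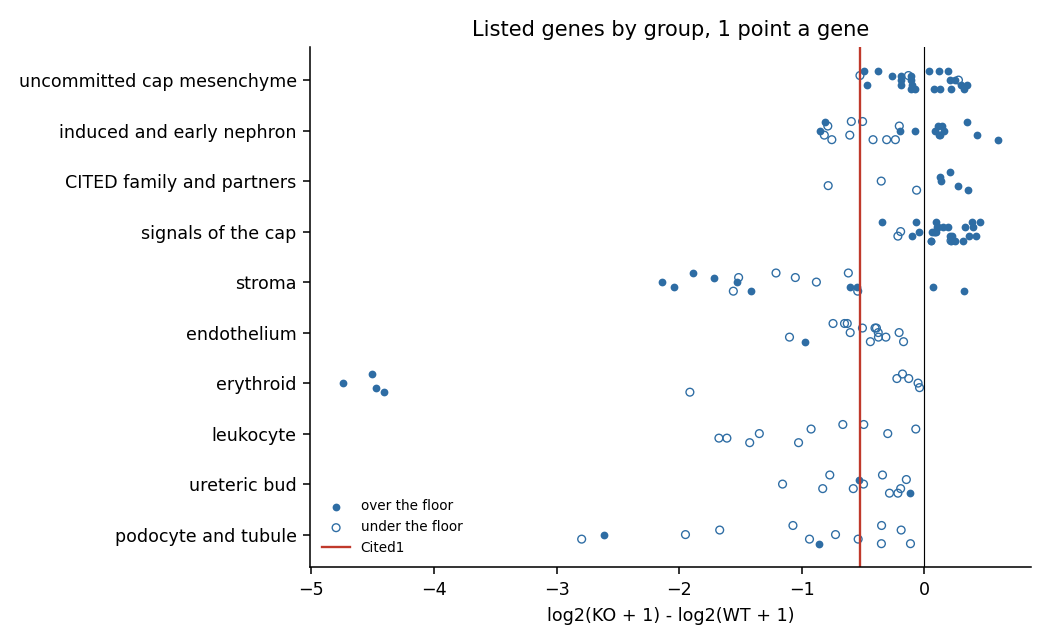
Log2 difference of KO minus WT for each gene of 10 lists, filled points over the density floor and open points under it, with the red line at the Cited1 value of -0.53. The uncommitted cap mesenchyme genes lie on both sides of 0 and to the right of Cited1 or level with it, and the markers of other cell types lie mostly below 0.

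Markers of other cell types that the sorted cells could hold were lower in the KO library together with Cited1. All 15 endothelial, 10 erythroid, 10 leukocyte, 12 ureteric bud and 13 podocyte and tubule genes in the table were lower. So were 15 of 17 stromal genes, beside 63.8% of genes over the whole table. Of these markers, 10 stromal, 4 erythroid, 2 ureteric bud, 2 podocyte and tubule, 1 endothelial and 0 leukocyte genes lay above the floor. Of all genes, 55.8% were lower above the floor and 71.9% under it. Summed densities went from 606 to 456 RPKM for stroma, from 27.4 to 12.6 for endothelium, from 631 to 23.9 for erythroid genes, from 16.4 to 2.35 for leukocytes, from 63.5 to 46.8 for ureteric bud and from 69.7 to 16.3 for podocyte and tubule. No listed marker was at 0 in WT, and 1 erythroid gene was at 0 in KO. The most abundant of each list included the stromal genes Aldh1a2 (272 RPKM in WT and 286 in KO) and Tcf21 (79.5 and 51.9 RPKM), the endothelial Plvap (10.7 and 4.98 RPKM) and Cd34 (6.14 and 4.26 RPKM), and the leukocyte genes C1qb (4.25 and 0.644 RPKM) and C1qa (2.71 and 0.382 RPKM). In the ureteric bud list they were Hoxb7 (31.01 and 28.6 RPKM) and Epcam (10.6 and 7.01 RPKM), and in the podocyte and tubule list Cldn5 (14.6 and 7.61 RPKM) and Fxyd2 (18.9 and 2.25 RPKM). The globins Hbb-b1 (237 and 9.69 RPKM) and Hbb-b2 (145 and 4.45 RPKM) have near-identical copies, so their single values are uncertain. The part of these cell types in the Cited1 difference was not tested.

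Cited1 is X-linked, and the libraries differed in a gene of X inactivation. Xist, the RNA that coats the inactive X chromosome of female cells, had 15.7 RPKM in WT against 70.1 in KO, and reads from the antisense Tsix cannot be told apart from its own where counting does not use strand. The 5 genes that the table places on chromosome Y, all under the floor, were lower in KO, where 71.9% of all genes under the floor were. MID1 had the lowest log2 difference, -1.42, and Kdm5d, Eif2s3y, Ddx3y and Uty lay from -0.78 to -0.33. Ddx3y was at 8.64 and 5.85 RPKM. The sex of the embryos is not given in the labels, so the sex makeup of the libraries and the genotype cannot be told apart. X-linked genes were not lower as a group. Of the 190 others above the floor, 83 were lower and 107 higher in KO, with a median of 0.074, against -0.073 over 5118 autosomal genes. Corrected for GC content and length, both medians were close, at -0.065 and -0.072. Among the X-linked genes above the floor, 5, or 2.63%, lay at or below Cited1, against 2.83% of the autosomal genes. None of the 50 X-linked genes nearest in mean density did.

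Genes around Cited1 on the chromosome went in both directions. Of 25 listed genes within 1500 kb on each side, 12 were lower in KO, where 63.8% of all listed genes were. At or below Cited1 were 2 of the 25, both under the floor, where 6.66% of all listed genes were. Gjb1, a gap junction gene named after its values were seen, was one of them (1.85 and 0.233 RPKM). The nearest listed gene was Rps4x, a ribosomal protein gene 58.0 kb away, with 228 RPKM in WT against 199.8 RPKM in KO, which processed copies of the gene make uncertain. Nhsl2, 155 kb away on the same side, was at 4.24 and 4.83 RPKM. On the other side the nearest were Gm9115, a predicted gene 472 kb away (27.1 and 29.9 RPKM), and Dmrtc1a, 651 kb away, with about 16 and 3 reads.

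**Figure D5:**
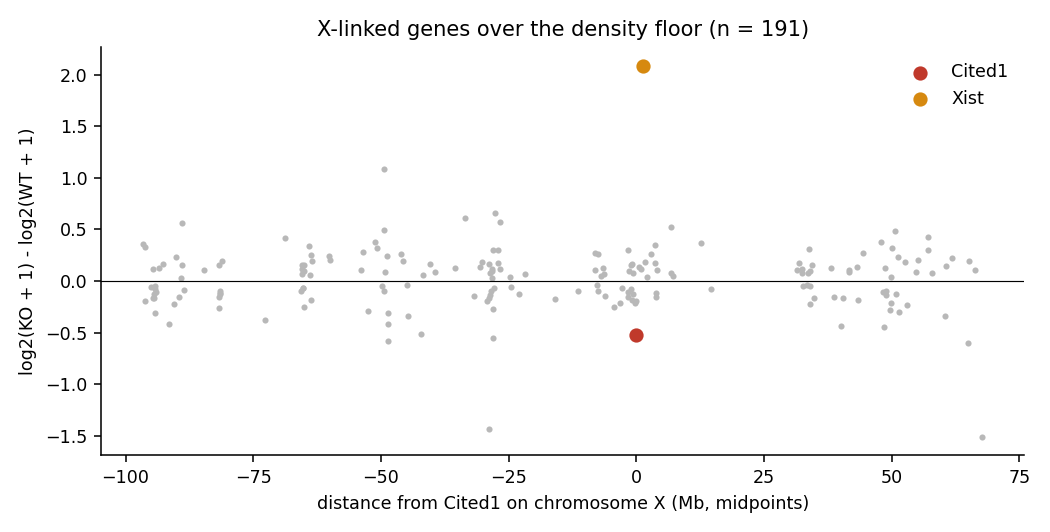
Log2 difference of KO minus WT for the 191 X-linked genes over the density floor, Cited1 included, against their distance from Cited1 in Mb, 1 point a gene. Cited1 stands at -0.53, and Xist at 2.09 lies above all others.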

How the data were processed

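RNA was sequenced from 1 WT and 1 KO library. Per the submitters' processing notes, CASAVA 1.8, Novoalign 2.08.02 and FastQC were used with builds GRCm38 and mm10, in no stated role. How reads were counted, and whether strand was used, is not given in the sources used here. For each library the authors deposited, per the file headers, a read density, which behaves as RPKM in its values, and for KO against WT a p-value, a corrected p-value, a fold change (a ratio) and a signed fold change (a score, negative where KO was lower). The deposited fold is the density ratio times 1.04. The largest corrected p-value was 0.0499827, so genes that missed the authors' limit of 0.05 are not listed.

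For 8 symbols on several rows the row with the highest mean density was used. Differences were log2(KO + 1) minus log2(WT + 1), a pseudocount of 1 RPKM, and the floor was the median of mean density. Depth came from genes at 0 in the other library, whose deposited folds stood at whole multiples (within 0.01) of a common step in 149 of 170 genes for WT and 70 of 75 for KO; density, exon length and reads then gave the same depth within 0.01% in 88 of 148 and 43 of 67 genes with a gene model. Of 10508 genes with a GENCODE vM21 model, 39.0% came out at whole reads in both libraries, and reads of the others are approximate. GC content is that of the longest transcript. The correction removed the median of each of 10 GC by 4 length classes and added back the overall median. Scripts used Python 3.11.15, pandas 2.3.3, numpy 2.4.6 and scipy 1.17.1 and were tested on simulated data.

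The gene and the lists were chosen with earlier results of these data known. Genes named were Cited1, Trp53, Six2, Xist, Cited2, Cited4, the 6 nearest in density pattern, leaving out predicted genes, small RNAs and pseudogenes, the 2 nearest listed genes on each side on chromosome X, the 3 highest and 3 lowest over the floor of each of the 4 progenitor lists, and the 2 most abundant of each marker list. Others serve as background to a list or were named after their values were seen, and some genes are not reported here. Alternatives covered the pseudocount, scaling, floor, density window and base composition.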

Additional observations from a re-analysis of the deposited data

How the results depend on the processing

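Cited1 stayed lower in KO under every setting tried, from -0.55 with a pseudocount of 0.25 to -0.40 with GC content and length corrected, which moved it beyond its counting interval. The share of genes at or below Cited1, 2.5% of 200 of like density, was 8.21% among genes of its own GC and length class, a comparison chosen after seeing the data, and 0% among the 50 nearest X-linked genes. Of 59 alternative values, 37 stayed within their counting error or, for counts, within 1.5 times, 20 moved beyond it and 2 changed sign. The early nephron median of 0.12 changed sign without the floor (-0.20), and the X-linked median of 0.074 did with GC content and length corrected (-0.065). The cause of neither was tested. Centring on the median and the authors' scaling gave medians of -0.0033 and -0.019 for the uncommitted cap mesenchyme, 0.19 and 0.17 for early nephron genes, 0.20 and 0.19 for signals, 0.28 and 0.26 for the CITED list and 0.15 and 0.13 for X-linked genes. The CITED list, with 5 genes above the floor and a median of 0.21, was also at 0.13 after the correction, 0.27 with the floor raised to the 75th percentile, 0.13 without the floor and 0.18 with a pseudocount of 4. Instead of 128 genes at least 1.5-fold lower there were 583 without the floor, 42 with the higher floor and 46 at 2-fold. No paired analysis was possible because each group has 1 library. Depth limits Cited1 little, and the lack of replicates limits every value.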
